A study of Arabidopsis thaliana with 3 samples.

Results

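The glycine-rich protein genes GRP2B, GRP5, GRP17, GRP18, GRP19 and GRP20 of Arabidopsis thaliana were examined. The question was which of them held chromatin regions listed for an immunoprecipitation of tagged histone deacetylase 6 (HDA6). The genes were chosen by name, and the regions at them were those that overlapped the gene body or 1 kb on either side by at least 1 bp. Under that rule 4 of the 6 genes, GRP2B, GRP5, GRP18 and GRP20, held 1 region each, whereas GRP17 and GRP19 held none. These 4 regions were among 7477 on the nuclear chromosomes. The 6 genes were among 27444 nuclear protein-coding genes, of which 2348 (8.56%) held a region under the same rule. Because the genes were named with earlier results of these data in view, the presence of a region at them is a description and no test was made of it.

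The plants were 14-day-old Col-0 seedlings with a fusion of HDA6 to green fluorescent protein, expressed from the HDA6 promoter (HDA6pro::HDA6:GFP) and grown in long days. Chromatin immunoprecipitation followed by sequencing (ChIP-seq) used an antibody against the fluorescent protein, in 2 ChIP samples and 1 input sample of the same plant line, with DNA of at least 5 immunoprecipitations combined for each library, per the labels. A table of ChIP regions and another of input intervals, mapped to TAIR10, were analysed, and each entry has a position but no height, count or p-value. The lists do not separate the replicates, so no value below has a replicate error, and the read depth is unknown. No sample of plants without the fusion was analysed here, and whether the plants also had untagged HDA6 is not given in the sources used here.

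HDA6 removes acetyl groups from histone tails and is best known in plants for silencing transposons, ribosomal RNA gene repeats and transgenes, often together with DNA methylation. Glycine-rich proteins are a mixed group that shares long glycine-rich stretches and little else. GRP17, GRP18, GRP19 and GRP20 belong to a tandem cluster of oleosin-like genes with GRP14 and GRP16. Their proteins join an oleosin domain, which sits in the surface of lipid bodies, to a glycine-rich tail. They are made in the tapetum, the nurse layer of the anther, and are passed to the pollen coat, where GRP17 is needed for normal pollen hydration on the stigma. GRP5 encodes a small glycine-rich protein known for a part in cell elongation. GRP2B, also called cold shock domain protein 4, joins a cold shock domain, which binds nucleic acids, to glycine-rich stretches with zinc fingers.

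The region at GRP18 (AT5G07520) was the widest of the 4. It ran from 2380189 to 2380653 on chromosome 5 and measured 465 bp. It began 291 bp inside the lower-numbered end of the gene, ended 664 bp before the other end and covered 32.7% of the 1420-bp gene body. Among the 1177 regions of the chromosome arms whose midpoint lay in a protein-coding gene, 91.7% were narrower, and it ranked 98. The arms were taken as all sequence more than 3 Mb from a centromere midpoint, and all 6 genes lay in them.

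The region at GRP20 (AT5G07560) was the narrowest. It ran from 2390404 to 2390644 on chromosome 5 and measured 241 bp, which was wider than 16.4% of the 1177 arm regions in genes. It began 197 bp inside the lower-numbered end and covered 19.5% of the 1233-bp body. GRP18 and GRP20 thus marked both ends of the width range of these genes, although they belong to the same cluster.

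The regions at the other two genes were of ordinary width. At GRP2B (AT2G21060) the region ran from 9037178 to 9037472 on chromosome 2 and measured 295 bp, against a median of 294 bp for the 1177 arm regions in genes. It covered 29.0% of the 1017-bp body. At GRP5 (AT3G20470) it ran from 7140776 to 7141045 on chromosome 3, measured 270 bp and covered 25.5% of the 1060-bp body.

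All 4 regions lay wholly inside the gene body and left both gene ends free. The midpoint stood at 55.0% of the body length from the lower-numbered end in GRP2B, at 58.2% in GRP5, at 36.8% in GRP18 and at 25.7% in GRP20. All 4 midpoints were therefore within the central portion that starts at 25% of the body from either end. This portion also held 55.8% of the 1177 arm midpoints in genes. It held a larger share in genes as short as these 4. Over the 122 arm regions in genes of 1017 to 1420 bp, the 25th percentile of the midpoint's distance from the nearer end was 25.9% of the body. Lying wholly inside 1 gene was likewise common, at 91.1% of those 1177 regions. The gene table used here gives no strand and no exons, so it is unknown which of these positions are nearer the start of transcription or fall in introns.

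The regions covered 19.5% to 32.7% of the gene bodies, against a median of 12.3% over the 1177 arm regions in genes. These are short genes, however, and the 4 with a region measured 1017 to 1420 bp. Over the 122 arm regions in genes of that length the median was 25.4%, with 21.2% and 30.8% as the 25th and 75th percentiles. GRP20 was thus below the 25th percentile, GRP5 at the median, GRP2B between the median and the 75th percentile, and GRP18 above the latter. Over all 6 bodies together, 16.1% of 7900 bp lay in a region.

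**Figure D1:**
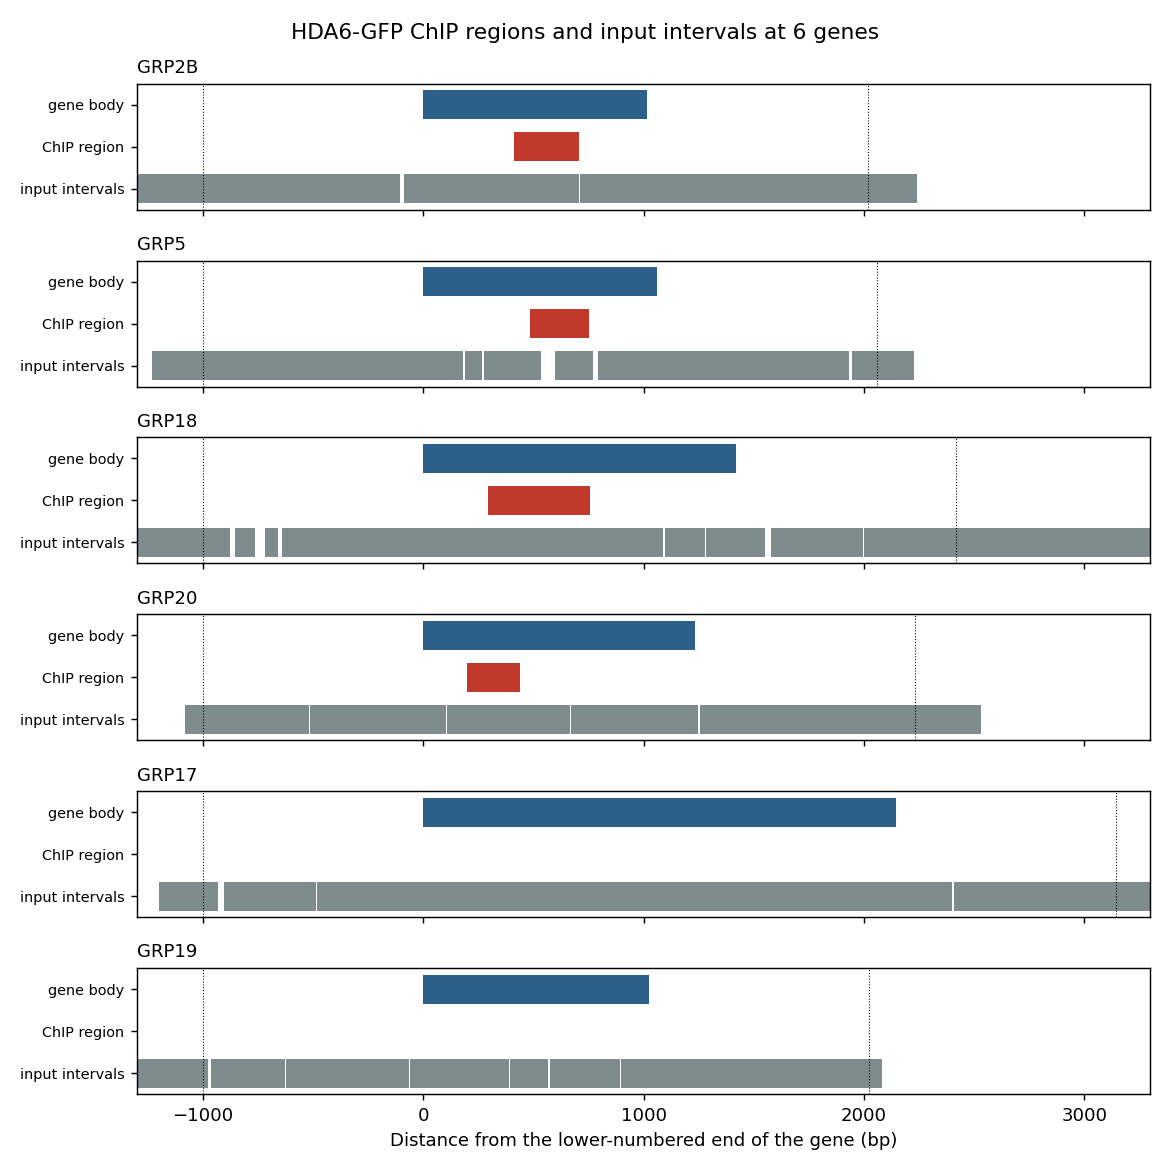
Gene body (blue), HDA6-GFP ChIP region (red) and input intervals (grey) at the 6 genes, by distance in bp from the lower-numbered gene end, with dotted lines 1 kb beyond each gene end. The ChIP region lies inside the body of GRP2B, GRP5, GRP18 and GRP20, GRP17 and GRP19 have none, and the input of GRP5 is interrupted within its ChIP region.

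**Figure D2:**
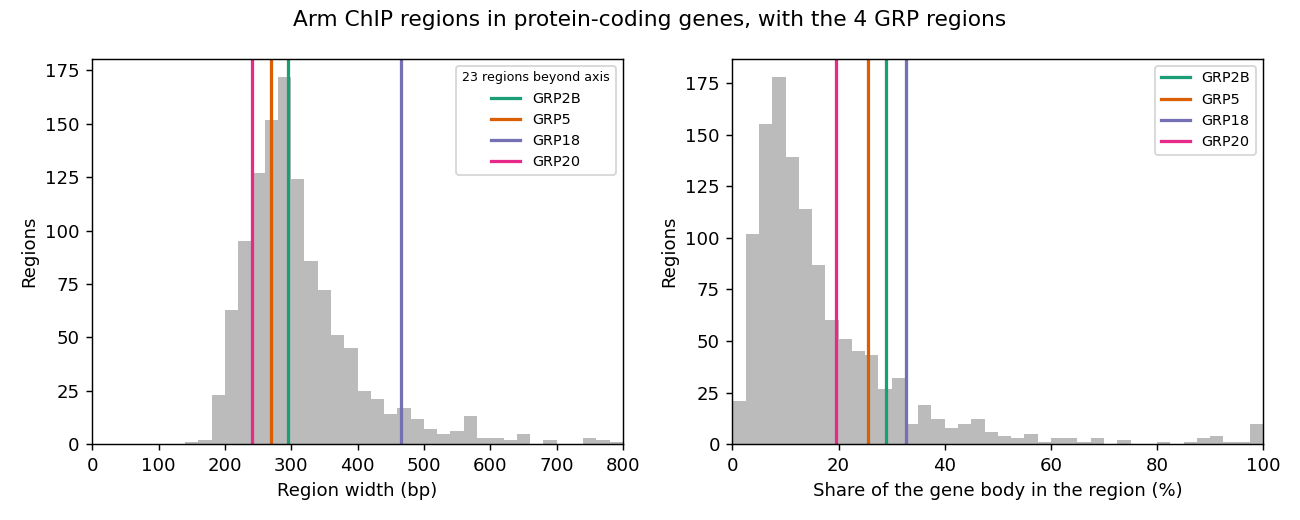
Histograms of region width in bp (left, where 23 regions lie beyond the axis) and of the share of the gene body in the region in % (right) for 1177 arm regions in protein-coding genes, with coloured lines for the 4 genes. The width at GRP18, 465 bp, stands in the upper tail and the other 3 between 241 and 295 bp, while all 4 body shares lie above the median of 12.3% for genes of any length.

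GRP17 (AT5G07530), the longest of the 6 genes at 2145 bp, and GRP19 (AT5G07550), with 1025 bp, had no region in the body or the 1-kb flanks. The nearest region to GRP19 was that of GRP20, which left 1154 bp between them, just outside the rule. The nearest to GRP17 was that of GRP18, at 1727 bp. Both distances were short beside the median of 25484.5 bp for the 22540 arm protein-coding genes that had no region under the same rule, and both follow from the neighbouring genes' regions. With the flank set at 1.5 kb, where 10.1% of the protein-coding genes carried a region, GRP19 counted as well. With 2 kb, where 11.5% of them did, all 6 genes did.

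Input intervals covered most of each gene body, with a region or without, and least of the body of GRP5. The input covered 99.8% of the GRP17 body and 98.1% of the GRP19 body, against 99.4% for GRP2B, 90.3% for GRP5, 98.8% for GRP18 and 99.3% for GRP20. The widest input interval at any of the 6 genes, 2226 bp, ran through most of GRP17, which had no region. The GRP18 region lay in an input interval of 1728 bp and the GRP20 region in one of 497 bp, both fully covered. The median of the widest input interval over the 1177 arm regions in genes was 1365 bp. The input list covers 97.8% of the nuclear sequence and has no height, so these intervals do not measure how many input reads a gene had.

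GRP5 was the exception in the input over its body and its region. Over the windows of 1 kb on either side it was not, with 96.2% covered against 96.1% at GRP18. The GRP5 body was split over 5 input intervals, and the 3 that lay wholly within it measured 79, 261 and 170 bp. A stretch of 62 bp with no input, from 7140830 to 7140891, fell inside the ChIP region. The input thus covered 77.0% of the GRP5 region, and only 2 of the 1177 arm regions in genes had a lower share. This comparison was chosen after the value had been seen. At GRP2B the uncovered part of the region was 3 bp long, and 67.9% of the 1177 regions were covered in full. Within the windows of 1 kb on either side, the number of input intervals per kb was 0.994 at GRP2B, 2.29 at GRP5, 2.34 at GRP18, 1.69 at GRP17, 2.64 at GRP19 and 1.86 at GRP20, against a median of 1.54 over 24247 arm protein-coding genes. GRP2B was thus less fragmented than the median gene and the other 5 were more so, GRP17 and GRP19 included. Whether the breaks in the input have a part in where regions were called was not tested.

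The tandem cluster from GRP14 to GRP20 on chromosome 5 spans 13737 bp in the order GRP14, GRP18, GRP17, GRP16, GRP19, GRP20. Regions were found at 2 of these 6 genes, against 7.04% of arm protein-coding genes. They covered 5.14% of the span, against 0.691% of all arm sequence. GRP18 and GRP20 were chosen with earlier results of these data in view, and their 2 regions make up all of the covered bases. The higher values are therefore a description and no test. Between the GRP18 and GRP20 regions lay 9750 bp without a region, which held GRP17, GRP16 and GRP19. GRP14 had none either, and its nearest region, that of GRP18, was 1359 bp away. GRP16 was the farthest from a region, at 3154 bp. AT5G07545, a 39-bp gene annotated within GRP16, also had none.

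Regions continued on both sides of the cluster. On the lower-numbered side a region of 254 bp, from 2375097 to 2375350, lay in the pseudogene AT5G07505, 4838 bp from the GRP18 region. On the other side AT5G07570, a protein-coding gene of 4749 bp that begins 141 bp beyond GRP20, held 3 regions. They ran from 2393908 to 2394167, from 2394648 to 2395141 and from 2395583 to 2395946, and measured 260, 494 and 364 bp. The second of them was wider than any region in the GRP genes. Having 3 or more regions in the body was rare, at 15 of 24247 arm protein-coding genes (0.0619%). That share is over genes of any length and was not matched to the 4749 bp of AT5G07570. AT5G07570 was named because it adjoins GRP20, but its number of regions was compared with other genes after it had been seen. Within 50 kb of the region midpoint there were 8 other regions around GRP18 and 7 around GRP20. For the 1177 arm regions in genes the median was 2, the 75th percentile 4 and the 95th percentile 12. The GRP18 and GRP20 regions are 9750 bp apart, so the 2 windows share most of their sequence and each counts the other region.

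**Figure D3:**
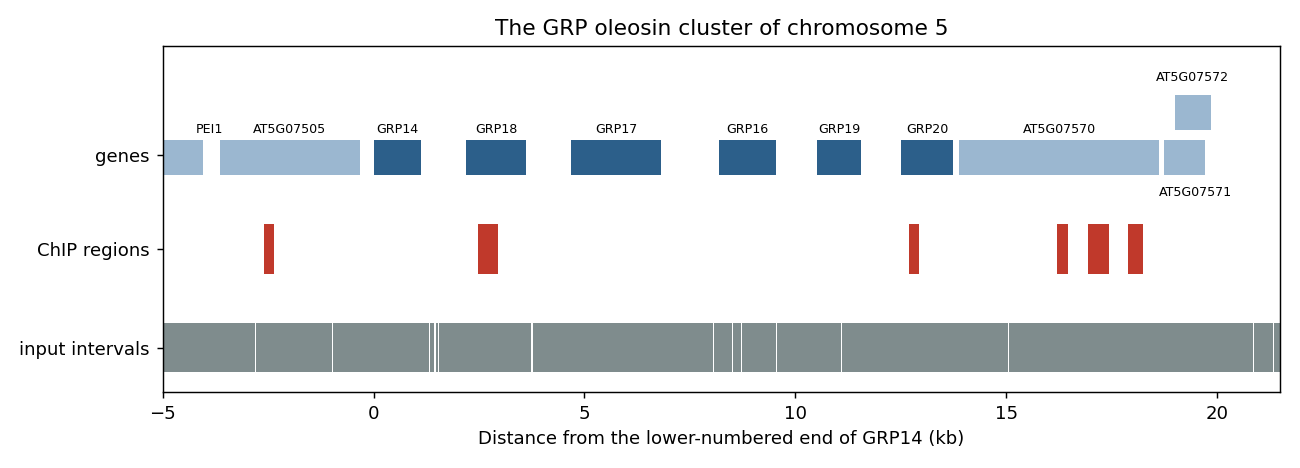
The GRP oleosin cluster of chromosome 5, by distance in kb from the lower-numbered end of GRP14, with genes on top (dark blue for GRP genes, pale for their neighbours), ChIP regions in red and input intervals in grey. Of the 6 GRP genes 2 hold a region, and 3 regions follow in AT5G07570 and 1 precedes in AT5G07505.

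Outside the cluster the regions at GRP2B and GRP5 had fewer other regions nearby than those at GRP18 and GRP20. The nearest other region to that of GRP2B was 8746 bp away, and to that of GRP5 35979 bp away, against a median of 15322 bp for the 1177 arm regions in genes. Each had 3 other regions within 50 kb, against a median of 2 for those 1177 regions. The bodies of their neighbours held none: LAX2, an auxin influx carrier, and FIO1, an RNA methyltransferase, beside GRP2B, and AT3G20460 and MSH5, a meiotic recombination factor, beside GRP5. LAX2 ends 129 bp from GRP2B, so the GRP2B region falls within 1 kb of LAX2 and is counted for that gene too under the flank rule. The GRP20 region is counted for AT5G07570 in the same way.

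Related genes were read against the share of all nuclear protein-coding genes with a region under the same rule, 2348 of 27444 or 8.56%. In the arms the share was 7.04%, and among the 8767 arm genes as long as these 6 it was 6.70%. With the gene body alone the 3 shares were 5.80%, 4.69% and 4.25%. The 4 of 6 genes here stand above those shares, but the genes were picked with that outcome known. The count of 4 was the same with a 500-bp flank, where 6.94% of the protein-coding genes carried a region, and with at least 50% of the region inside the 1-kb window, where 7.76% did. Among the 3749 widest nuclear regions the GRP18 region was the only one at these genes, and 3.21% of all protein-coding genes had one of those regions.

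Of 20 genes listed as glycine-rich proteins by symbol, synonym or locus, 5 had a region, all in the body. Besides GRP2B, GRP5, GRP18 and GRP20 this was GRP9 (AT2G05440), whose region from 1993512 to 1993908 on chromosome 2 measured 397 bp and covered 34.8% of the body. GRP9 lies within 3 Mb of the centromere midpoint, unlike the others. Without the 6 chosen genes the count was 1 of 14, or 7.14% (95% Wilson interval 1.27 to 31.5%), near the background of 8.56%. Of these 14, the 7 named as glycine-rich RNA-binding protein genes lacked a region (95% Wilson interval 0 to 35.4%). The background of 8.56% is within that interval. Among the 7 were GRP7 and CCR1 (also named GRP8), RNA-binding proteins under the control of the circadian clock. The nearest region to GRP7 was 1593 bp away and to CCR1 22641 bp. GRP-3, whose protein binds a wall-associated kinase, and GRP3S had none either. A gene with the symbol GRP23, AT1G10270, was left out of this list because its annotated name is glutamine-rich protein 23. It had a region of 387 bp in its body, whereas AT2G32690, the glycine-rich gene of the same symbol, had none.

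Cold shock domain genes were represented by GRP2B alone. Its relatives GRP2 (AT4G38680), CSDP1 and CSP3, which encode nucleic acid-binding proteins of the same domain type, had no region, and their nearest ones lay 6115, 19673 and 7040 bp away. The input covered 97.6% to 100% of the bodies of the 4 genes. Without GRP2B, which was chosen with its region known, the count was 0 of 3 (95% Wilson interval 0 to 56.1%), too few genes to set against the background of 8.56%.

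Of 17 genes in a hand-made list of oleosins, 5 had a region: 2 of the 6 cluster genes and 3 of the 11 others. At AT2G25890 the region, from 11037527 to 11037845 on chromosome 2, lay in the body and covered 36.4% of it. At AT5G07571, which follows AT5G07570, and at AT3G01570 it lay in the flank, 485 and 782 bp from the body, and with the body alone the count was 3 of 17. The region beside AT5G07571 is the last of the 3 in AT5G07570. The gene table gives none of these 3 loci a name. OLEO1, OLEO2, OLEO3 and OLEO4, the listed genes with an OLEO symbol, had no region nearer than 45400 bp. The listed oleosins were not sorted by the tissue in which they are made, so seed oleosins were not compared as a class. Without GRP17, GRP18, GRP19 and GRP20 the count was 3 of 13 (23.1%, 95% Wilson interval 8.18 to 50.3%), an interval that includes the background of 8.56%. All 17 listed oleosins lay in the arms, where the share was 7.04%, just below that interval. With the body alone the count was 1 of 13, against 4.69% of arm genes. The list was chosen with earlier results of these data known, so these values are a description and no test.

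The 17 listed genes of the tapetum and the pollen wall had no region, at 0 of 17 (95% Wilson interval 0 to 18.4%). The background of 8.56% is within that interval, so a lower share than in other genes was not detectable with this number of genes. The list held the tapetal transcription factors DYT1, TDF1, AMS, MYB80 and MS1, the sporopollenin enzymes ACOS5, LAP5, LAP6, MS2, DRL1, CYP703A2 and CYP704B1, and the pollen coat lipases EXL4 and EXL6, besides A7, AT1G75920 and AT5G07230. The nearest region to any of them was 3254 bp away, at DRL1, and the median distance was 14459 bp. The input covered 95.5% to 100% of their bodies. The list left out the 6 cluster oleosins, which are also made in the tapetum and of which 2 held a region. The count of 0 thus holds for the listed genes and not for tapetal genes as a class.

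**Figure D4:**
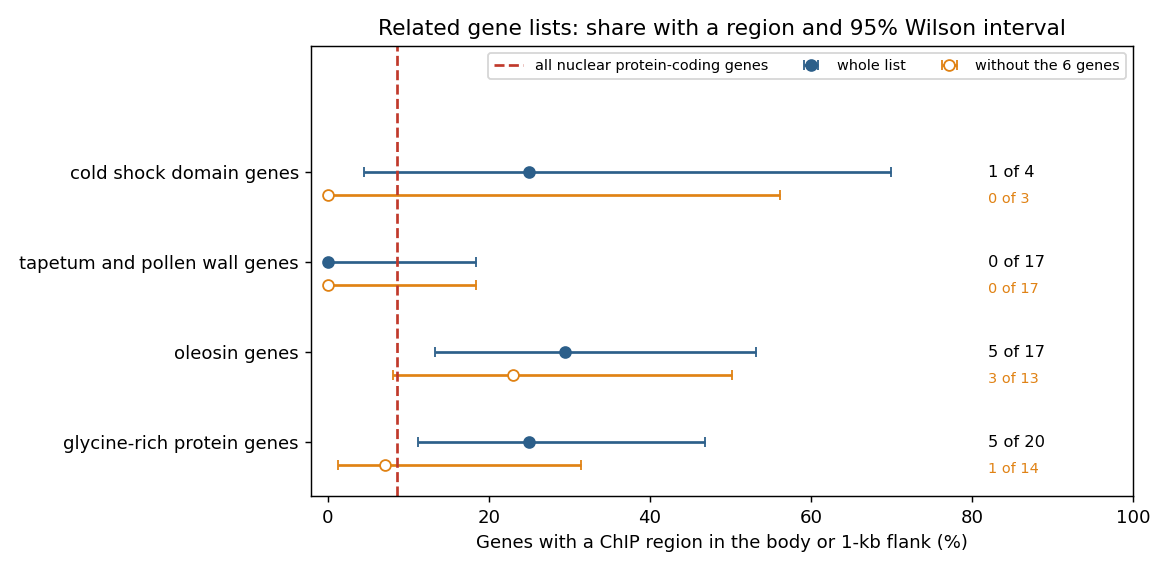
Share of genes in % with a ChIP region in the body or 1-kb flank in 4 related lists, with 95% Wilson intervals over genes, for the whole list (filled) and without the 6 chosen genes (open), and the share of all nuclear protein-coding genes as a dashed line. Without the chosen genes the glycine-rich list falls from 5 of 20 to 1 of 14, and all 4 intervals include the dashed line at 8.56%. The share of arm genes, 7.04%, is not drawn and lies below the oleosin interval, which starts at 8.18%.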

How the data were processed

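The files deposited by the authors give the chromosome and the first and last position in bp of each entry, and no other value; starts are printed counted from 1. The submitters' processing notes name Bowtie, SICER and TAIR10. Tool versions and settings, and how reads with several matches were treated, are not given in the sources. As no replicate is named in either file, each was treated as one pooled list of its group.

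Genes came from the RefSeq gene table of TAIR10.1, which was assumed to share its nuclear coordinates with TAIR10. Its coordinates are not printed. Members and lists were chosen with earlier results of these data known. Named genes were the 6 genes, the other genes of the cluster, the genes next to a member, the genes under a member's region and the listed genes with a region; other listed genes named here were added after their values were seen. The lists were written by locus, the glycine-rich one also by symbol or synonym among protein-coding genes.

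Overlaps, covered bases and distances were computed with Python 3.11.15, numpy 2.4.6 and pandas 2.3.3, and the overlap code was tested on simulated data. Wilson intervals at 95% (scipy 1.17.1) cover counting error only and treat genes as independent, which neighbours are not. Centromere midpoints were set at 15, 3.6, 14, 4 and 11.7 Mb on chromosomes 1 to 5. Alternatives changed the flank, the overlap needed, the regions kept and the joining of regions up to 200 bp apart. The planned comparison by glycine content of the protein was not run, since no protein sequences were used here.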

Additional observations from a re-analysis of the deposited data

How the results depend on the processing

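The 1.5-kb flank and the input over gene bodies were added after seeing the data. The count of chosen genes with a region was 4 of 6 with the body alone, with a 500-bp flank and with at least 50% of the region inside the window, 5 with a 1.5-kb flank and 6 with a 2-kb flank. With only the 3749 widest nuclear regions (337 bp or more), the count was 1 (GRP18), that of glycine-rich genes 2, of oleosins 2, of cold shock domain genes 0, and of all protein-coding genes 881 (3.21%). Without the chosen genes the glycine-rich and oleosin counts were then 1 of 14 and 1 of 13. The covered share was then 5.89% of the 6 bodies and 3.39% of the cluster. With a 2-kb flank (11.5% of all protein-coding genes) the glycine-rich count was 9 of 20 and the oleosin count 8 of 17, or 3 of 14 and 4 of 13 without the chosen genes. With the body alone (5.80%) the oleosin count was 3 of 17, or 1 of 13 without them. With the 1-kb flanks included, the covered share was 6.39% at the 6 genes and 4.49% at the cluster. The last 2 shares fell because the flanks held no further region but lengthened the window. The listed tapetum and pollen wall genes, without the cluster oleosins, stayed at 0 of 17 under each alternative run. Joining regions up to 200 bp apart changed neither share. The input covered 98.1% of the 6 windows and 98.0% of the bodies. No paired analysis was possible because neither list carries a replicate number, and leaving out a replicate was not possible for the same reason. The number of genes limits the precision of each share, and the unknown read depth leaves the strength of each region unmeasured.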
